A study of Homo sapiens with 6 samples.

Results

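Integrins are cell-surface receptors for the extracellular matrix, each built from 1 alpha and 1 beta subunit. The 10 genes described here encode integrin subunits that melanoma cells can use: 7 alpha subunits (*ITGA3*, *ITGA4*, *ITGA5*, *ITGA6*, *ITGA7*, *ITGA9* and *ITGAV*) and 3 beta subunits (*ITGB1*, *ITGB3* and *ITGB5*). They were chosen by name and matched to the gene table by Ensembl ID with the version dropped. All 10 were among its 13449 genes, so none of the requested subunits was absent. The members were chosen with earlier results of these data known, so their full presence is not a finding.

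The libraries came from SK-MEL-28, an established human cutaneous melanoma line, harvested 3 days after transfection with an siRNA. In the siDANCR group (3 libraries) the siRNA targeted *DANCR*, a long noncoding RNA, and in the control siRNA group (3 libraries) it was a non-targeting one. Both groups share the cell line and the transfection, and the line is a single established culture, so the replicates are not separate donors. The table gives 1 value per gene that could be used here, the authors' mean normalised count over all 6 libraries, and 0 columns of values per library.

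A pooled mean carries no spread between libraries, and neither the depth per library nor the difference between siDANCR and control siRNA cells could be computed from it. No SD, n or test therefore stands beside the levels below. They describe how much of each subunit's mRNA was counted in SK-MEL-28 cells of both groups together, and fewer cells and less RNA per cell could not be told apart in these bulk samples. A level is given as the mean normalised count and, to compare genes, as that count per kilobase of the gene's merged exons.

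The alpha and beta chains pair in the endoplasmic reticulum, and only paired chains reach the surface, so the supply of 1 subunit can limit the receptors made from its partner. The beta1 chain has the widest choice of alpha partners, while the alphaV chain has the widest choice of beta partners. Outside the cell the alpha chain largely sets the ligand: alpha3, alpha6 and alpha7 bind laminins, alpha5 and alphaV bind ligands with an arginine-glycine-aspartate (RGD) motif, and alpha4 and alpha9 bind fibronectin variants and other matrix proteins. In melanoma, alphaV with beta3 is known for its link with the passage from radial to vertical growth.

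Lineage markers matched the label. Of the melanocyte-lineage markers, 6 of 7 were listed, with 969.7 to 6681 counts per kilobase, led by *PMEL* and *SOX10*, and *TYRP1* was not among the genes of the table. Of the markers of other cell types, 1 of 5 leukocyte genes (*CD68*, 31.4 per kilobase), 1 of 3 endothelial genes (*VWF*, 2.34) and 1 of 4 keratinocyte genes (*CDH1*, 77.4) were listed, against 0 of 3 for platelets and 0 of 4 for fibroblasts. The table starts at a mean of 23.1, so a gene outside it was not analysed here and is not shown to be silent. Its median was 322.5 mean normalised counts, and 69.8 per kilobase over the 13161 genes with a known length.

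The 10 members fell into a high and a low set with a wide gap between them. *ITGA6*, *ITGB3*, *ITGB5*, *ITGAV* and *ITGB1* lay between 151.7 and 1599 counts per kilobase. *ITGA3*, *ITGA9*, *ITGA4*, *ITGA7* and *ITGA5* lay between 14.4 and 31.8 per kilobase. The lowest gene of the high set stood 4.77-fold above the highest gene of the low set, and the whole range was 111-fold. All 3 beta subunits were in the high set, and 5 of the 7 alpha subunits were in the low one. The gap holds for the members only: of the other listed subunits, *ITGB8* (126.3 per kilobase) and *ITGA2* (55.5) lay inside it. Together the 10 genes took 0.177% of all mean normalised counts.

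**Figure D1:**
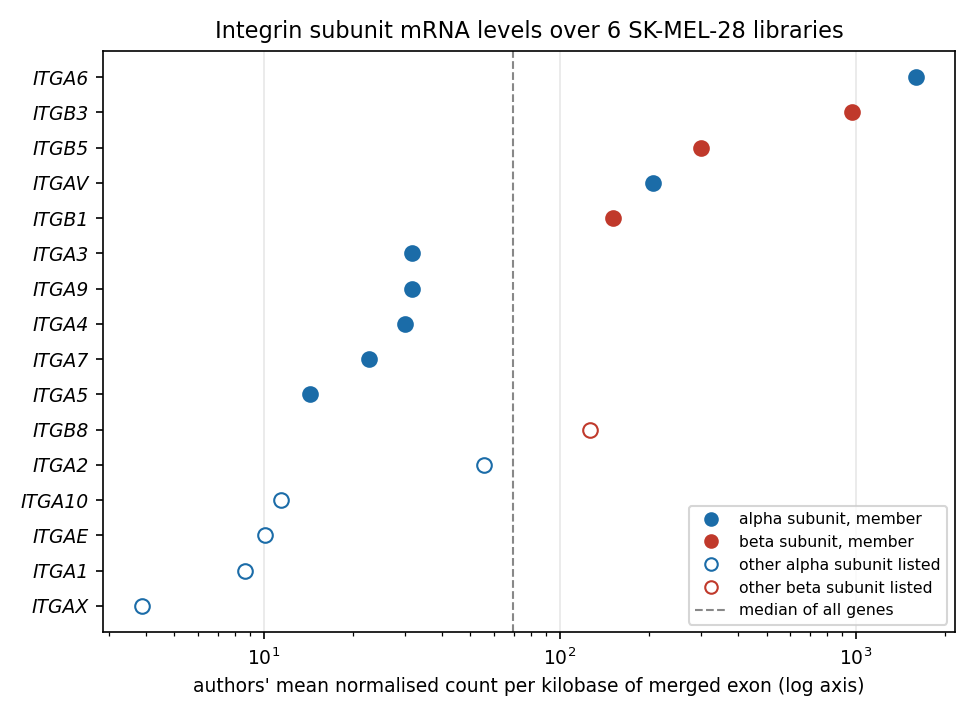
Level of each listed integrin subunit as the authors' mean normalised count per kilobase of merged exon (log axis), with alpha subunits in blue and beta subunits in red. Filled points are the 10 members, open points the 6 other subunits listed, and the dashed line the median of all genes with a known length at 69.8. The 5 highest members lie at 151.7 or above and the 5 lowest at 31.8 or below.

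Among the laminin receptors, *ITGA6* was by far the highest. This subunit forms alpha6beta1, and alpha6beta4 in epithelia. *ITGA6* (ENSG00000091409, chromosome 2, 173292082 to 173371187, plus strand, GRCh37) had a mean of 10680 normalised counts, ranked 101 from the top of the table and stood at 1599 counts per kilobase. *ITGA3*, the receptor chain for laminins of epithelial basement membranes, had 311.8 counts and 31.8 per kilobase. *ITGA7*, best known as the laminin receptor of muscle, had 206 counts and 22.7 per kilobase. *ITGA6* made up 96.7% of the summed per-kilobase level of these 3 chains, and 91.8% to 95.4% under the other lengths tried. Its usual partner in epithelia, *ITGB4*, was not among the genes of the table.

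Among the RGD receptors, *ITGAV* stood above *ITGA5*. The alphaV chain binds vitronectin, fibronectin and latent TGF-beta, whereas alpha5 with beta1 is the classical fibronectin receptor. *ITGAV* (chromosome 2, 187454737 to 187545628, plus strand) had a mean of 4003 normalised counts and 207 per kilobase. *ITGA5* (chromosome 12, 54789045 to 54813050, minus strand) had 106.1 counts and 14.4 per kilobase, the lowest of the 10 members on both scales. The *ITGAV* level per kilobase was 14.4 times that of *ITGA5*, and 11.5 to 37.8 times under the other lengths.

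*ITGA4* and *ITGA9*, which belong to a structurally distinct branch of alpha chains, were close to each other. *ITGA4* had a mean of 319.1 normalised counts, near the median of all genes, and 30 per kilobase. *ITGA9* had 262.9 counts and 31.8 per kilobase. The order of the pair depended on the length used: *ITGA9* was 1.06 times as high as *ITGA4* per kilobase of merged exon but 0.711 times as high per kilobase of canonical transcript. With no spread at hand, these neighbours cannot be ordered. *ITGA3* was level with *ITGA9* per kilobase of merged exon (ratio 1) and 1.17 to 3.05 times as high on the other scales.

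*ITGA4* also shares sequence with a neighbour. The last part of *ITGA4* overlaps exons of *CERKL*, a gene on the opposite strand, by 2813 bases, or 26.4% of the merged exons of *ITGA4*. Of the 6732 windows of 50 bases in the canonical *ITGA4* transcript, 41.1% are also found, read on the other strand, in *CERKL* transcripts. *CERKL* had a mean of 294.3 normalised counts. The libraries were strand-marked, but no source read for this work says that strand was kept in counting. Reads from either gene may therefore stand under the other, and the *ITGA4* level is uncertain.

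Of the beta subunits, *ITGB3* was the highest on each scale with the counts as listed. *ITGB5* was above *ITGB1* with merged exons and below it on the other 4 scales. The beta3 chain pairs with alphaV outside platelets, and with alphaIIb in platelets, whose gene *ITGA2B* was not among the genes of the table. *ITGB3* (chromosome 17, 45331193 to 45391109, plus strand) had a mean of 6627 normalised counts, ranked 219 from the top and stood at 970.4 per kilobase. *ITGB5*, the beta chain of the vitronectin receptor alphaVbeta5 (chromosome 3, 124480795 to 124620265, minus strand), had 1963 counts and 301.3 per kilobase. *ITGB3* was thus 3.22 times as high as *ITGB5*, and 2.08 to 3.42 times under the other lengths. A further annotated gene on the same strand, ENSG00000259753, covers 2266 bases of *ITGB3* exons (33.2%) and was not among the genes of the table, and how reads in that stretch were assigned is not known here.

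*ITGB1* was the lowest of the 3 beta members per kilobase of merged exon only. The beta1 chain is the shared partner of most matrix-binding alpha subunits. *ITGB1* (ENSG00000150093, chromosome 10, 33176201 to 33294720, minus strand) had a mean of 2209 normalised counts and 151.7 per kilobase. Its merged exons span 14561 bases, whereas its canonical transcript has 3735, so its level depended strongly on the length: per kilobase of canonical transcript it was 591.5, above *ITGAV* (568.8) and *ITGB5* (442.1). *ITGA6* was 10.5 times as high as *ITGB1* per kilobase of merged exon and 3.1 times per kilobase of canonical transcript.

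**Figure D2:**
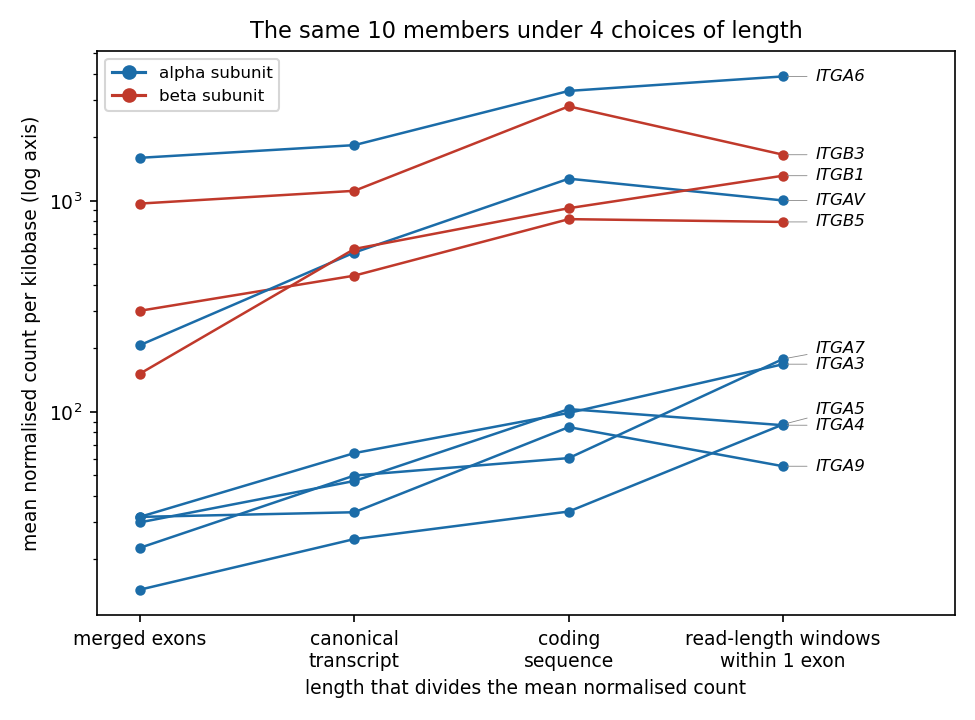
Mean normalised count per kilobase (log axis) of the 10 members when the count is divided by merged exon length, canonical transcript length, coding length or the number of read-length windows that lie within 1 exon. *ITGA6* and *ITGB3* are highest under each, the same 5 genes stay above the other 5, and *ITGB1* stands at 151.7 under merged exons and at 1316 under windows.

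The count of *ITGB1* has to be read with that of a copy of it. *ITGB1P1* (ENSG00000269378, chromosome 19, 14732446 to 14733054, minus strand, GRCh37) is annotated as a processed pseudogene, that is, a piece of spliced mRNA copied back into the genome, of 609 bases in 1 exon. All 609 bases are identical to positions 1872 to 2480 of the canonical *ITGB1* mRNA, with 0 mismatches. The stretch ends at the last coding base before the stop codon (coding positions 87 to 2480 of the mRNA), lies in exons 13 to 16 and contains 3 exon junctions. In the GRCh37 genome the match goes on past the annotated copy, from position 1870 to 2589 of the mRNA, with 718 of 720 bases identical and 0 gaps.

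The junction of *ITGB1* exons 13 and 14 shows this identity. The 12 bases on each side of the junction are in capitals in the sequences below, which run 5′ to 3′ from the GRCh37 reference. In *ITGB1* an intron of 992 bases separates chr10:33200376-33200415 from chr10:33199344-33199383. In *ITGB1P1* the same 80 bases are unbroken at chr19:14732869-14732948, and both are on the minus strand.
ITGB1 mRNA: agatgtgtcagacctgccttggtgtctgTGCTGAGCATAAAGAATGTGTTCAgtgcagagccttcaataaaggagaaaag
ITGB1P1: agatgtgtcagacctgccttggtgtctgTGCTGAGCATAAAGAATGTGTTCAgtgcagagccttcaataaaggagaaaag

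The same holds at the junction of exons 14 and 15, where the intron removed from *ITGB1* has 1688 bases. Here the *ITGB1* parts are chr10:33199151-33199190 and chr10:33197423-33197462 and the copy is chr19:14732636-14732715. The bases beside this junction are again in capitals.
ITGB1 mRNA: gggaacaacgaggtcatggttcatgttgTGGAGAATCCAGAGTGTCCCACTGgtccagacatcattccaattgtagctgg
ITGB1P1: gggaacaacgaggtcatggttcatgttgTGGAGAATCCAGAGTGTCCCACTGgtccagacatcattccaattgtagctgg

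*ITGB1P1* had a mean of 1173 normalised counts in the table, above 81.9% of all genes. It ranked 76 of the 539 processed pseudogenes listed, whose median was 146.3. Per kilobase it stood at 1925, or 3.26 times the *ITGB1* level per kilobase of canonical transcript and 12.7 times that per kilobase of merged exon. Of the counts of both genes together (3382), 34.7% lay on *ITGB1P1*, which corresponds to 16.3% of the length of the *ITGB1* mRNA. A read that lies wholly in the shared stretch cannot be given to either gene by its own sequence. The reads were paired, and a mate outside the matched stretch could tell the genes apart. How mates were used is not known here.

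An aligner that does not split reads over introns, such as the Bowtie version named in the submitters' notes, places a read over an exon junction only where the spliced sequence is unbroken. Its exact role in making the table is not stated. Of the 3586 read-length windows of the *ITGB1* mRNA, 1679 (46.8%) lie within 1 exon. The copy holds 460 such windows, and 358 of them cross an *ITGB1* junction. Whether counts were moved from *ITGB1* to *ITGB1P1* was not tested. The sum of both counts is 1.53 times that of *ITGB1* alone, or 232.2 per kilobase of merged *ITGB1* exon. On that scale it would place *ITGB1* above *ITGAV* in the order of members. By windows within 1 exon *ITGB1* alone stood at 1316 and *ITGB3* at 1654. The 1.53-fold rise does not carry over to that scale. It adds all counts of the copy, whereas the 358 copy windows over a junction are not among the 1679 of *ITGB1*. The order of *ITGB1* and *ITGB3* with the copy added was therefore not determined there. *ITGB1* and *ITGA4* were the only 2 members that shared over 1% of their windows of 50 bases with another gene of the table.

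**Figure D3:**
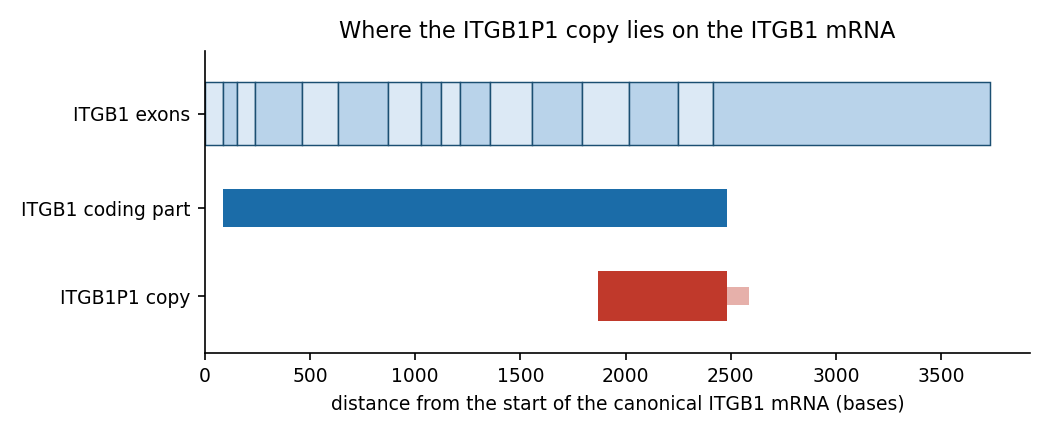
Map of the canonical *ITGB1* mRNA to scale, in bases from its start, with its 16 exons (upper row), its coding part (middle row) and the stretch matched by *ITGB1P1* (lower row). The dark red bar is the 609 bases of the annotated copy, at positions 1872 to 2480, and the pale bar shows the match of the surrounding genome out to position 2589.

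The members also differed in how closely their exon junctions are spaced. The share of read-length windows that lie within 1 exon of the canonical transcript was lowest in *ITGA7* (29.1%), *ITGA5* (29.7%) and *ITGA3* (39.1%), all in the low set, and highest in *ITGB3* (69.2%). The remaining genes of the low set, *ITGA9* (61.7%) and *ITGA4* (55.7%), had larger shares than *ITGA6* (48.5%) and *ITGB1* (46.8%) of the high set. Per kilobase of such windows *ITGA7* stood at 178.2, *ITGA3* at 168.3 and *ITGA5* at 87.3, and *ITGA9* with 55.3 was the lowest member. The gap between the high and the low set was then 4.46-fold, against 4.77-fold with merged exons. Outside the members, *ITGB8* (268.9) and *ITGAE* (236.4) lay inside this gap. The *ITGAE* value rests on only 283 such windows, 7.74% of those of its canonical transcript. *ITGA7*, *ITGA3* and *ITGA5* also had the highest GC content of the canonical transcripts (58% to 60.9%, against 38.3% to 54.6% in the other members). What part these features had in the counts was not tested.

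The *ITGB1* level stood below the summed level of its alpha partners on each scale, by an amount that depended on the length. Its level was 0.0754 times the sum of the 10 alpha subunits in the table that pair with it (2012 per kilobase), of which *ITGA6* alone made up 79.5%. The ratio was 0.115 with the count of *ITGB1P1* added, and 0.218 by canonical transcript length. Both changes at once were not tried. By canonical length the counts of *ITGB1* and *ITGB1P1* together came to 905.4 per kilobase, against 591.5 for *ITGB1* alone. The sum counts *ITGA6* and *ITGAV* in full, although alpha6 also pairs with beta4 and alphaV with other beta chains. The ratio therefore does not show whether beta1 was in short supply. *ITGAV* had a level 0.134 times the sum of its 4 listed beta partners (1550 per kilobase), of which *ITGB3* made up 62.6%, and a level 0.213 times that of *ITGB3* alone. On the other scales the first of these ratios was 0.237 to 0.315. These are ratios of mRNA levels, and protein was not measured. By canonical length the ratio of *ITGAV* to *ITGB3* was 0.51. Over all listed subunits the alpha chains summed to 2026 and the beta chains to 1550 per kilobase, a ratio of 1.31, which was 0.965 by coding length.

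**Figure D4:**
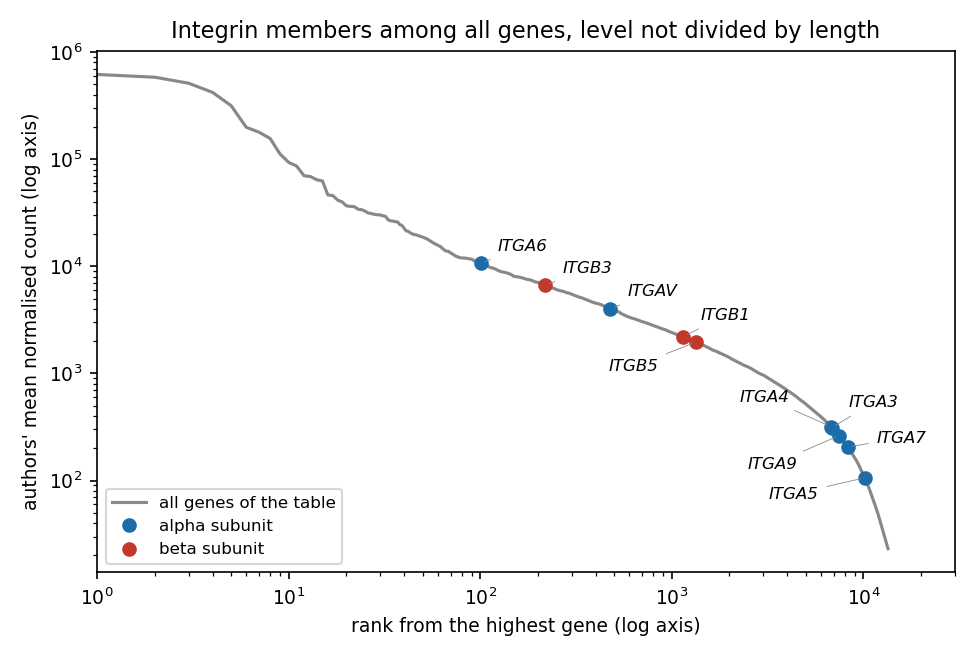
Authors' mean normalised count, not divided by length, against rank from the highest of the 13449 genes (both axes log), with the 10 members marked. *ITGA6* at rank 101 and *ITGB3* at rank 219 lie far up the curve, and *ITGA5* at rank 10165 is the lowest member.

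Not divided by length, 5 of the members lay above the median gene and 5 below it. *ITGA6* was at the 99.3rd percentile of the table, *ITGB3* at the 98.4th, *ITGAV* at the 96.5th, *ITGB1* at the 91.5th and *ITGB5* at the 90.1st. *ITGA4* was at the 49.7th and *ITGA3* at the 49.1st percentile, just under the middle. *ITGA9* (44.4th), *ITGA7* (38.5th) and *ITGA5* (24.4th) followed.

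Of the other integrin subunits, 6 of 16 were listed, 1 of them a beta chain. *ITGB8*, a partner of alphaV that takes part in the activation of latent TGF-beta, had a mean of 1914 normalised counts and 126.3 per kilobase, or 0.419 times *ITGB5*. By coding length it stood at 829.5, against 819 for *ITGB5*, so the order of these chains depended on the length. *ITGA2*, a collagen receptor chain that pairs with beta1, had 438.2 counts and 55.5 per kilobase of merged exon, above each of the 5 low members. It was below *ITGA3* by canonical length (55.9 against 63.8), and below *ITGA3* and *ITGA7* by windows within 1 exon (103.8 against 168.3 and 178.2). The other collagen receptor chains, *ITGA10* (11.5 per kilobase) and *ITGA1* (8.66), lay below all 10 members with merged exons, as did *ITGAE* (10.1) and *ITGAX* (3.88), known from leukocytes. On other scales *ITGA1* was above *ITGA5* (160.6 against 106.1 counts, 45.4 against 33.7 per kilobase of coding length). By windows within 1 exon *ITGAE* stood at 236.4, above all 5 low members, but it has only 283 such windows (7.74%). By canonical and coding length it stood at 17.6 and 18.9 per kilobase, below all 10 members. Exons of *ITGA1* overlap those of *PELO* (mean 951.7) on the same strand by 499 bases, or 2.69% of its merged exons. Those of *ITGAE* overlap *HASPIN* (mean 470.7) on the opposite strand by 427 bases, or 6.47%. How reads in these stretches were assigned is not known here, so the levels of *ITGA1* and *ITGAE* are uncertain. *ITGA2B*, *ITGA8*, *ITGA11*, *ITGAD*, *ITGAL*, *ITGAM*, *ITGB2*, *ITGB4*, *ITGB6* and *ITGB7* were not among the genes of the table.

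The genes of the matrix ligands differed widely in level. Of the laminin chains, 8 of 11 were listed, at a median of 60.9 per kilobase against 69.8 over all genes with a known length. *LAMC1*, the gamma1 chain found in most laminins, led with 693.8, followed by *LAMB2* (175.4), *LAMA1* (119.1) and *LAMB1* (91). Of the ligands of RGD receptors, 8 of 12 were listed, with a median of 343.4 per kilobase. *TNC* (tenascin C, 2755) and *FN1* (fibronectin, 2317) were the highest, followed by *CCN2* (640.7) and *MFGE8* (562.1), and vitronectin (*VTN*) was not among the genes. Of the ligands of alpha4 and alpha9, 4 of 9 were listed: *TNC* and *FN1* again, *SPP1* (osteopontin, 64.2) and *EMILIN1* (10.5). *VCAM1*, the endothelial ligand of alpha4, was not among them.

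At the membrane, all 10 partner genes fixed as a list were in the table, at a median of 442.2 per kilobase. They were led by *SLC3A2* (847.3), whose product CD98 binds beta chains, and *BSG* (835.7), followed by the tetraspanins *CD81* (656.2) and *CD63* (588.6). Of the genes whose products bind integrin tails, directly or through other proteins, 15 of 19 were listed with a median of 93. *FLNA* (filamin A, 677.3) and *TLN1* (talin, the activator that links beta tails to actin, 543.6) were the highest, ahead of the tensins *TNS3* (428.1) and *TNS1* (317.3). *ILK*, which encodes a kinase-like adaptor of beta tails, was not among the genes of the table. All 14 genes of the adhesion complex were listed, at a median of 228 per kilobase, led by *ACTN4* (alpha-actinin, 2254), *PXN* (paxillin, 1917), *CRK* (639) and *ZYX* (zyxin, 492.1).

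**Figure D5:**
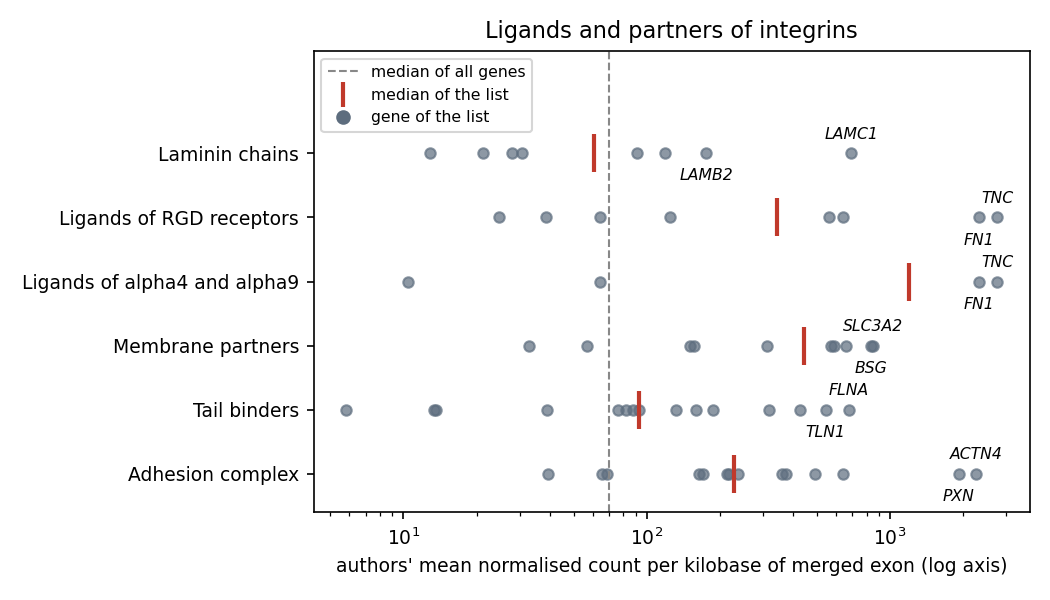
Levels per kilobase of merged exon (log axis) of the listed genes in each of 6 fixed lists, with 1 point per gene and a red bar at the median of each list. The dashed line is the median of all genes with a known length (69.8). The medians lie between 60.9 for laminin chains and 1190 for ligands of alpha4 and alpha9, where 4 genes are listed, and *TNC* and *FN1* are in both ligand lists.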

How the data were processed

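Poly(A) RNA was read as paired ends of 150 bases from strand-marked libraries, with 3 siDANCR and 3 control siRNA samples per the labels. The submitters' processing notes name Trim Galore 0.4.4, Bowtie 1.1.2, DESeq2 and hg19 (GRCh37). The annotation, the counter and its treatment of strand were not given in the sources used here. This Bowtie version aligns each read in 1 piece, so reads over exon junctions may be missing from the counts.

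The deposited table holds, per gene, a depth-scaled signal, the mean normalised count over all libraries that the authors computed. Its other 5 columns hold the authors' own comparison (log2 fold change, its error, a statistic, a p-value and an adjusted p-value). They were not used, nor was a second sheet of genes selected by that comparison. There are 0 columns per library, so the planned count test of siDANCR against control siRNA, its alternatives and any check of replicates could not be run, and depth per library is unknown.

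Gene IDs were matched without version to a reference table (13161 of 13449 named). Lengths, exons and positions are those of GENCODE release 44 lifted to GRCh37, read with Python 3.11.15, pandas 2.3.3 and Biopython 1.88, and plotted with matplotlib 3.10.9. The level is the mean normalised count per kilobase of merged exon. A percentile is the share of genes at or below a member. Windows of 50 bases of canonical transcripts were searched in all annotated transcripts on both strands, and the 4000 bases on each side of ITGB1P1 were aligned locally with the ITGB1 mRNA (match 1, mismatch -2, gap opening -5, extension -1). The length functions were tested on simulated data. Genes were named by rule: all members, every other integrin subunit listed, and the 4 highest per kilobase of each list. CERKL, ENSG00000259753, ITGB1P1, PELO, HASPIN, absent genes and lineage markers were named outside it, after their values were seen. The members and lists were chosen with earlier results of these data known. A comparison of protein sequences was planned and not run.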

Additional observations from a re-analysis of the deposited data

How the results depend on the processing

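No value has an error, so "moved" here means a change in the third significant digit. The ratio of *ITGB1* to its summed alpha partners (0.0754 with merged exons) was 0.218 by canonical transcript length, 0.179 by coding length and 0.133 without division by length. The ratio of *ITGAV* to its summed beta partners (0.134) was 0.241, 0.237 and 0.315 under the same 3 choices. A pair of alternatives was chosen after seeing the data. With windows within 1 exon as length the ratios were 0.233 for *ITGB1* and 0.249 for *ITGAV*, and with *ITGB1P1* added to *ITGB1* they were 0.115 and 0.127. Both ratios stayed below 1 throughout. The share of all counts on the 10 members was 0.178% when genes under a mean of 50 were left out, against 0.177% over all. Matching through the gene annotation also found 10 members. All 10 levels per kilobase and all 10 percentiles moved under each alternative, and the 5 genes of the high set were the same under all 5 scales. Places in the order of members changed for 4 genes by canonical length, 6 by coding length, 6 without division by length and 7 by windows within 1 exon.

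No paired analysis was possible because the table has 0 columns per library. The planned count test, its other normalization and filter, the fits without single replicates and, for want of a protein table, the protein comparison were not run. The values do not show which counts came from siDANCR and which from control siRNA cells.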
